A study of Mus musculus with 2 samples.

Results

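Open chromatin was described at 8 genes of the MHC class II and interferon response, out of 22238 annotated protein-coding genes, in 1 control and 1 Taf4-inactivated enteroid library. The 8 genes were given by symbol: the class II chain genes H2-Aa, H2-Ab1 and H2-Eb1, the invariant chain gene Cd74, the transactivator gene Ciita and the interferon regulatory factor genes Irf1, Irf7 and Irf8. The rule that names them uses no measured value, although earlier results of these data were known when it was written. For each gene, peaks within 1 kb of any annotated start site were taken as start site peaks, with starts more than 1 kb apart named as separate promoters (P1, P2 and so on, in the direction of transcription). Other peaks in the gene body or in the 20 kb on each side were taken as distal.

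Enteroids are epithelial cultures, started here from crypts of the ileum of C57Bl6/129sv mice at an age of 4 months. In ATAC-seq, the assay used, a transposase cuts open DNA and tags it for sequencing. The control library is labelled WT, and in the methods of the study the controls carry both floxed Taf4 alleles without Cre. The library labelled KO came from floxed enteroids that also carried VilCreERT2, a tamoxifen-dependent Cre driven by the Villin promoter, which is active in the intestinal epithelium. Both received 1 µM 4-hydroxytamoxifen for 3 days, so an effect of Cre itself and an effect of Taf4 loss cannot be told apart. Taf4 is a component of TFIID, a general transcription factor. Each genotype had 1 library without a replicate, so each difference is one between these 2 libraries, with no test.

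MHC class II molecules are pairs of an alpha and a beta chain that show peptides to CD4+ T cells. The invariant chain Cd74 escorts them to the compartment where they are loaded, and Ciita switches their genes on by joining factors already bound to the X and Y boxes of their promoters (RFX, CREB and NF-Y). Interferon-gamma induces Ciita in intestinal epithelial cells, through GAS elements and through Irf1 at interferon-stimulated response elements (ISRE), while Irf7 amplifies the type I interferon response and Irf8 is best known from myeloid cells.

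The control list held 90445 peaks and the Taf4-inactivated list 71282. From the background reads under peaks, 12.1 in control and 7.35 after inactivation, the depth of the Taf4-inactivated library was estimated at 60.5% of that of the control library. Read numbers were not used here. The fold enrichment of a peak is relative to the background of its own library, with a list median of 2.03 in control and 2.45 after inactivation, and cannot be set side by side between lists. Each peak is therefore also given by its percentile, which is the position of its fold in its own list, from 0 for the lowest to 100 for the highest.

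The promoter sequences of the 3 class II chains are printed first, since 2 of the 3 genes had a start site peak in the control list only. They run from 250 bases before the first annotated start to 50 bases from it (300 bases, mm9), in the direction of the gene. They are H2-Aa P1 (chr17:34424723-34425022, minus strand), H2-Ab1 P1 (chr17:34399904-34400203, plus strand) and H2-Eb1 P1 (chr17:34442578-34442877, plus strand). Capitals mark matches on either strand to a Y box (GATTGG), an X box pattern and a GATA pattern (AGATAA).
H2-Aa P1: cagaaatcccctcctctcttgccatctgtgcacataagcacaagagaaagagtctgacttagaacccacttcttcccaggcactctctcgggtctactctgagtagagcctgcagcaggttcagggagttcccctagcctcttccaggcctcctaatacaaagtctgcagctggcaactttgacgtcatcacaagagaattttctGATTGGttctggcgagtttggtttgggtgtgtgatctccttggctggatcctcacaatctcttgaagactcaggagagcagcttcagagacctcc
H2-Ab1 P1: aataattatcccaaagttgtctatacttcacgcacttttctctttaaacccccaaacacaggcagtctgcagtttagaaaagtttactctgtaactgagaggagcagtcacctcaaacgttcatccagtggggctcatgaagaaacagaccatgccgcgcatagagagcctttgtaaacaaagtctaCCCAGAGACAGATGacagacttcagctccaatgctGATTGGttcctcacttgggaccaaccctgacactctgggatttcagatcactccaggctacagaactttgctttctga
H2-Eb1 P1: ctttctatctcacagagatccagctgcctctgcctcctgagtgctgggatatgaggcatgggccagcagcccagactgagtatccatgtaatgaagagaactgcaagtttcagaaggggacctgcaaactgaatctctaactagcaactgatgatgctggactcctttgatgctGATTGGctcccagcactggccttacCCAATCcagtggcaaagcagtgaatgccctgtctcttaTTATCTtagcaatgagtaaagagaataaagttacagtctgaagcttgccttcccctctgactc

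All 3 held a Y box, which 13.8% of 39701 promoters did. In H2-Aa P1 it lay at -45 to -40 from the start. H2-Ab1 P1 held one at -28 to -23, behind an X box match at -63 to -50, a pattern found in 0.519% of promoters. H2-Eb1 P1 held one at -76 to -71 and one on the opposite strand at -51 to -46. The X box pattern was strict, and its absence from H2-Aa P1 and H2-Eb1 P1 says only that these letters were not in these windows.

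Promoter sequences of Ciita and Irf1 are shown because both hold a GAS pattern (TTCNNNGAA), the letters through which interferon-gamma is known to act. These are Ciita P3 (chr16:10489626-10489925, plus strand) and Irf1 P1 (chr11:53583266-53583565, plus strand), in windows of the same kind. Capitals mark the GAS pattern in both and an ISRE pattern (GAAANNGAAA) in Ciita P3.
Ciita P3: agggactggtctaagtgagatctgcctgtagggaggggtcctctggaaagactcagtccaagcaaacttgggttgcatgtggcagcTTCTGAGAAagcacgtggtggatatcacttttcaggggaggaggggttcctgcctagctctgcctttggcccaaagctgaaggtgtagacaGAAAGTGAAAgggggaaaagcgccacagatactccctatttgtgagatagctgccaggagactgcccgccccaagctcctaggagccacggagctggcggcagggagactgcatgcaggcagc
Irf1 P1: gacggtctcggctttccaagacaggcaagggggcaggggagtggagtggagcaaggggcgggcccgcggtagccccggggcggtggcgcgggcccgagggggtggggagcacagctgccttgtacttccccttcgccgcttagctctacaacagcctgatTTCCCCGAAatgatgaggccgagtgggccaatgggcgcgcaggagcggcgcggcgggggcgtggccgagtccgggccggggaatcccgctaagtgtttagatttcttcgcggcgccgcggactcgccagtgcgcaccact

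In Ciita P3 the GAS match stood at -164 to -156 and the ISRE match at -73 to -64, and in Irf1 P1 the GAS match stood at -90 to -82. A GAS pattern was found in 8.39% of promoters and an ISRE pattern in 3.97%. The GAS pattern reads the same on both strands, so each place is counted once here. Irf8 P1 held GAS matches at -171 to -163 and at -153 to -145, and a Y box at -122 to -117. Irf7 P1 held none of the GAS and ISRE letters, and held a match to the X box pattern at -39 to -26.

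Distal regions are shown where the results turn on them: the 3 pairs away from the start of any gene with the largest positive differences in percentile after inactivation, and the strongest distal peak around Ciita. Each is 300 bases of mm9, plus strand, around the stretch shared by the peaks of both lists. They are Irf1 -12.2 kb (chr11:53571115-53571414), Ciita -8.06 kb (chr16:10472111-10472410), H2-Aa 1.79 kb (chr17:34422901-34423200, in an intron) and Ciita -14.8 kb (chr16:10465445-10465744), with distances in the direction of the gene from its first start to the centre of the Taf4-inactivated peak. Capitals mark the HNF4 pattern CAAAGTCCA in the first and second, a CTCF pattern in the third, and ISRE and AP-1 (TGANTCA) patterns in the last.
Irf1 -12.2 kb: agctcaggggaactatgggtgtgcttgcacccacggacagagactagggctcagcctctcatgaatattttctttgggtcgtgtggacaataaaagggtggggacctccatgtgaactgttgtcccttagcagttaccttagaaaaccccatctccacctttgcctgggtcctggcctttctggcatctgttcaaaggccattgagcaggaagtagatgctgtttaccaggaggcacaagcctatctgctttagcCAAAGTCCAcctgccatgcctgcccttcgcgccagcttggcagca
Ciita -8.06 kb: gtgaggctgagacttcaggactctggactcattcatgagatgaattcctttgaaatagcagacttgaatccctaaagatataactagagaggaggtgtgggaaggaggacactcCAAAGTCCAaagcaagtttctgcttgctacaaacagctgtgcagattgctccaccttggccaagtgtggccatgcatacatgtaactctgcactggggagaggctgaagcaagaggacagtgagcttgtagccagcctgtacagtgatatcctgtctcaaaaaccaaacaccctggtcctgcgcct
H2-Aa 1.79 kb: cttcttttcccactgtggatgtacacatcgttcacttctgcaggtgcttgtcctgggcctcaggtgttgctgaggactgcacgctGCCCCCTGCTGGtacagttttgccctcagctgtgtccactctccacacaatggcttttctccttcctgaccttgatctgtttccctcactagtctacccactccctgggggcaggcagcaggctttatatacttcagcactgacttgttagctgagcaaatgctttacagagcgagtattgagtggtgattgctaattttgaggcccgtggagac
Ciita -14.8 kb: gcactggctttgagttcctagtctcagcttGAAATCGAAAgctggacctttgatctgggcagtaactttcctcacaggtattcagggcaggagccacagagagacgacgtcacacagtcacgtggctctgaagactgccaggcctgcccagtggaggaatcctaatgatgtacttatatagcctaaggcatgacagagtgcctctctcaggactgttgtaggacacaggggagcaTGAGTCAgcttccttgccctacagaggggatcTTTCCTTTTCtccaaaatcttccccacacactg

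The HNF4 pattern, that of a nuclear receptor of the intestinal epithelium, was present in 1.67% of the 26895 windows drawn in the same way around all distal pairs. Around Irf1 its match lay at bases 256 to 264 of the window, where its last bases passed the end of the shared stretch, and around Ciita at bases 115 to 123. The Irf1 -10.8 kb pair, whose percentile was lower after inactivation, held the pattern as well, at bases 121 to 129. So did the window of a peak called after inactivation only, 19.1 kb from the Irf1 start and at percentile 7.34. The CTCF pattern, that of the insulator protein, was present in 2.7% of windows. It was also held by the Cd74 -16.6 kb pair, at percentile 66.9 in control and 70.3 after inactivation. A peak called after inactivation only, 35.9 kb from the H2-Aa start and at percentile 60.7, held it too. The ISRE pattern, which the Ciita -14.8 kb window held at bases 31 to 40 and 268 to 277, was present in 1.99%, and the AP-1 pattern in 15.2%. These matches describe letters and not bound factors.

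Start site peaks were present at 8 of the 8 genes in control (68.5% of all coding genes) and at 5 of the 8 after Taf4 inactivation (65.7%). H2-Aa, H2-Eb1 and Cd74 had one in the control list only, 3 of 8 genes against 5.68% of all coding genes. Among the 15238 coding genes with a control peak, as all 8 had, 1264 had one in control only. H2-Ab1, Ciita, Irf1, Irf7 and Irf8 had one in both lists. None of the 8 had one after inactivation only, as 2.88% of coding genes did. Thus an alpha chain, a beta chain and the invariant chain were without a called promoter peak in the Taf4-inactivated library, while the transactivator and the 3 interferon regulatory factors had one in each library. The control-only count was sensitive to the calling limits: it was 1, H2-Aa, at a −log10 q of at least 2 and 1 when the longer control list was cut to the length of the other. At a −log10 q of 2, Ciita and Irf7 had a peak after inactivation only.

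**Figure D1:**
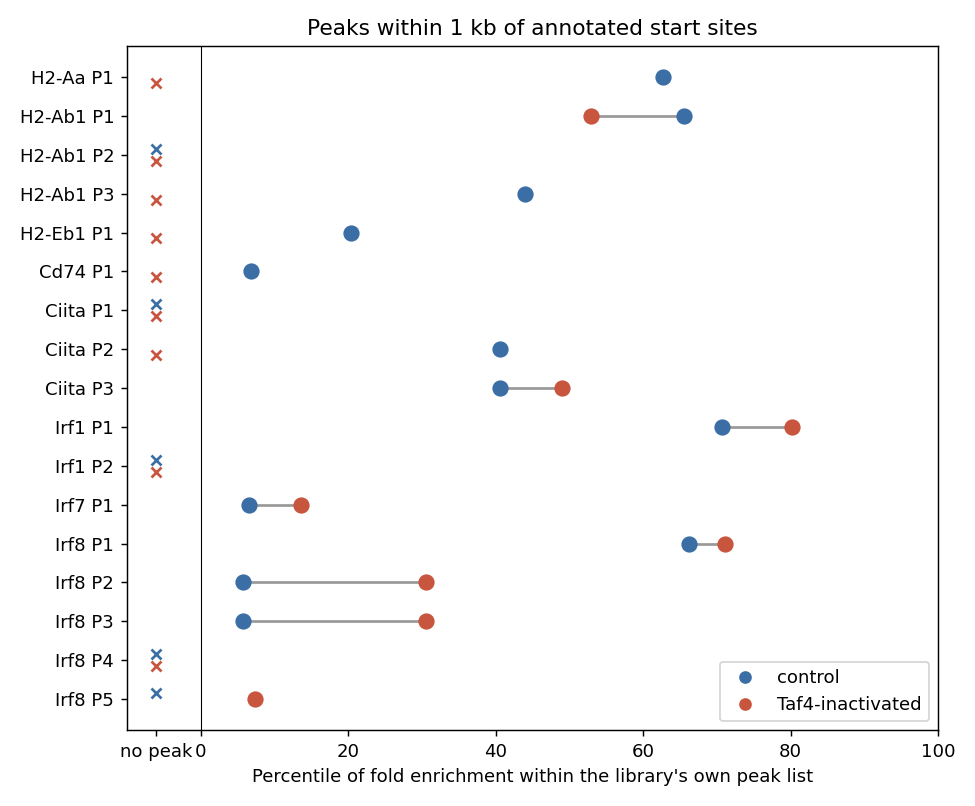
Percentile of fold enrichment (horizontal axis, within each library's own list) of the start site peak at each annotated promoter of the 8 genes, with a cross at the left where the list held no peak. Blue is control and red is Taf4-inactivated, and a grey line joins promoters with a peak in both. H2-Aa P1, H2-Eb1 P1 and Cd74 P1 have a control peak only, and the red point is the higher one at Ciita P3 and at each promoter of Irf1, Irf7 and Irf8 with a peak in both lists.

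H2-Aa (ENSMUSG00000036594.7, chromosome 17, 34406276 to 34424772, minus strand) encodes the alpha chain of the class II molecule I-A. Its control start site peak spanned 34424683 to 34424983, with a fold of 2.11, a −log10 p of 4.09 and a −log10 q of 2.01, at percentile 62.7. No Taf4-inactivated peak lay within 1 kb of its starts. The control peak covered the start of the gene and was of middle rank. Among all control start site peaks in the same 10% of the list by fold, 72.7% had an overlapping partner after inactivation, and in the same 10% by −log10 p 58.4% did.

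H2-Ab1 (ENSMUSG00000073421.4, chromosome 17, 34400154 to 34406363, plus strand) encodes the beta chain that pairs with H2-Aa. At P1 the control peak spanned 34400083 to 34400348 with a fold of 2.13, at percentile 65.5. After inactivation the peak spanned 34399970 to 34400328 with a fold of 2.49, at percentile 53.0. The 2 peaks shared 246 bp, and the percentile was lower after inactivation, with a difference of -12.6 points. The X and Y box matches printed above lay inside both peaks, which began at -71 bases from the start in control and at -184 after inactivation. H2-Ab1 was thus the chain gene whose promoter was called in both libraries. P2 and P3, starts of retained-intron transcripts, had no peak and a control peak only (percentile 44.0), in that order.

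H2-Eb1 (ENSMUSG00000060586.8, chromosome 17, 34442828 to 34453144, plus strand) encodes the beta chain of the class II molecule I-E. Its control peak spanned 34443081 to 34443852, with a fold of 1.89 and a −log10 p of 3.09, at percentile 20.4. It began 194 bp past the nearest annotated start, in the first part of the gene, so the promoter letters printed above lay outside it. No peak was called there after inactivation. By −log10 p it stood at percentile 4.66. Of control start site peaks in the same 10% of the list, 54.8% by fold and 24.6% by −log10 p had a partner.

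Distal peaks around the 3 chain genes numbered 7 in control and 8 after inactivation, with each counted once because the windows overlap, and 4 of each overlapped a peak of the other list. Over all distal peaks, 61.5% in control and 48.8% after inactivation had no partner. None of the 7 control peaks (4.85% of all distal control peaks) and 3 of the 8 Taf4-inactivated peaks (19.3%) had a −log10 q of at least 5. The distal peaks of the class II region were thus not fewer in the Taf4-inactivated list, but they covered 3285 bp there and 6437 bp in control. Fewer chain promoters were called there, a count that was sensitive to the calling limits, as given above. Inside an intron of H2-Aa, a peak 1.79 kb from the start was at percentile 36.4 in control (fold 1.97) and 86.3 after inactivation (fold 3.45). This difference of 49.9 points lay just under the 50 points used to single out pairs, and the shared stretch was 142 bp long. A pair over a coding exon of H2-Eb1, 3.92 kb from its start, was at 48.8 in control and 75.3 after inactivation. In the other direction, a pair 26.03 kb from the start of H2-Aa, beyond H2-Ab1, was at 50.9 in control and 11.2 after inactivation.

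Between H2-Aa and H2-Eb1, in an intron of the annotated gene Gm20513, a peak at chromosome 17, 34437849 to 34438310, was called after inactivation only. It had a fold of 3.42, a −log10 q of 9.02 and a percentile of 85.8. A control peak lay beside it without overlap, at 34436306 to 34437318 and percentile 36.9. A second peak called after inactivation only lay over a coding exon of H2-Ab1 (34401923 to 34402272, percentile 62.3). A control peak in an intron of H2-Aa (34417623 to 34418097, percentile 75.4) had no partner. Peaks called in 1 library only, of either kind, therefore stood side by side within the class II region.

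**Figure D2:**
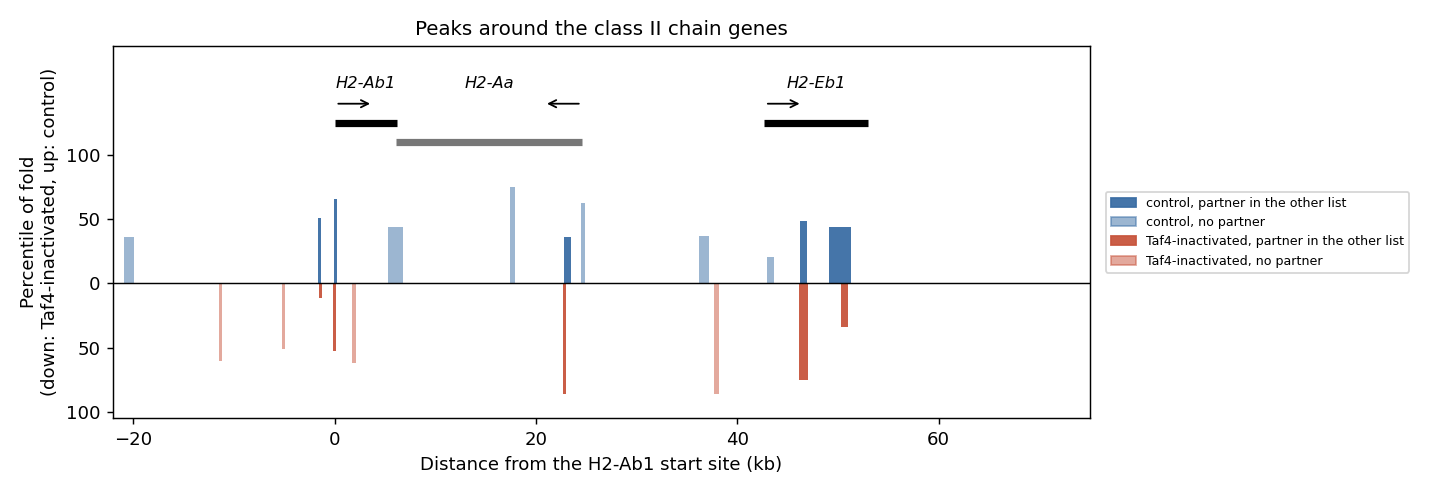
Peaks around H2-Ab1, H2-Aa and H2-Eb1 by distance from the H2-Ab1 start (horizontal axis, kb), with bar height giving the percentile of fold, upward for control and downward for Taf4-inactivated. Pale bars overlap no peak of the other list, and arrows give the direction of transcription. The pale control bars include those at the starts of H2-Aa and H2-Eb1, and the tallest pale Taf4-inactivated bar, at percentile 85.8, stands between these genes.

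Cd74 (ENSMUSG00000024610.8, chromosome 18, 60963502 to 60972300, plus strand) had a control start site peak at 60963377 to 60963993, with a fold of 1.79 and a −log10 p of 2.89. This was among the weakest peaks of the control list, at percentile 6.78 by fold and 0.364 by −log10 p. Of control start site peaks in the lowest 10%, 47.6% by fold and 24.6% by −log10 p had a partner. No Taf4-inactivated peak lay within 1 kb of the starts or over the gene body. Around Cd74, 8 distal peaks were called in control and 3 after inactivation, and 1 of each formed a pair, at 66.9 in control and 70.3 after inactivation. The strongest of the control peaks without a partner lay at 60951006 to 60951349, -12.3 kb from the start, at percentile 88.9. The other control peaks without a partner stood at percentiles from 3.14 to 30.7 by fold. By −log10 p the strongest stood at percentile 86.1, and those starting at 60967310 and 60992013 at 51.6 and 52.2. The rest stood at 13.5 to 23.9 by −log10 p. Of all distal control peaks, 61.5% had no partner. Cd74 was the gene with the largest shortfall of called distal peaks after inactivation among the 8, mostly of control peaks that ranked low by fold.

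Ciita (ENSMUSG00000022504.8, chromosome 16, 10480237 to 10527657, plus strand) is annotated with 3 promoters, and the start of P3 carries an identifier of its own under the same symbol (ENSMUSG00000075404.4, 10489876 to 10492330). P1, at 10480237, had no peak in either list. P3, with the GAS and ISRE letters, was the promoter with peaks in both. In control its peak spanned 10488883 to 10490047 with a fold of 1.98, at percentile 40.6. After inactivation the peak spanned 10489613 to 10490901 with a fold of 2.44, at percentile 49.0. They shared 435 bp, and the percentile was higher after inactivation by 8.39 points. The same control peak came within 1 kb of P2 (10488271), at a distance of 491 bp, and the Taf4-inactivated peak did not.

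Around Ciita, 11 distal peaks were called in control and 14 after inactivation, 8 of each with a partner. Over all distal peaks, 61.5% in control and 48.8% after inactivation had no partner. The count includes a pair at the start of Dexi and a pair at the start of Clec16a. Away from the start of any gene, 9 lay in control and 12 after inactivation. The strongest was the intergenic -14.8 kb pair, with the ISRE and AP-1 letters, at percentile 98.8 in control (fold 3.43) and 96.3 after inactivation (fold 4.34). It ranked high in both libraries. The intergenic -8.06 kb pair, with the HNF4 letters, was at percentile 26.8 in control (fold 1.92, −log10 p 3.28) and 94.6 after inactivation (fold 4.11, −log10 p 13.8). This was a difference of 67.7 points by fold and 75.4 by −log10 p over a shared stretch of 299 bp. An intronic pair 41.31 kb from the start was at 5.62 in control and 27.1 after inactivation. A peak called after inactivation only lay in an intron 15.95 kb from the start (10495992 to 10496385, fold 3.06, percentile 77.7).

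Irf1 (ENSMUSG00000018899.9, chromosome 11, 53583516 to 53591876, plus strand) encodes the factor that binds ISRE letters in the interferon-gamma response. At P1 the control peak spanned 53583126 to 53584288 with a fold of 2.18, at percentile 70.6. After inactivation it spanned 53583266 to 53584215 with a fold of 3.15, at percentile 80.1. The whole Taf4-inactivated peak, 950 bp, lay inside the control one, and its percentile was higher by 9.50 points. P2, at 53586655, had no peak in either list. Irf1 P1 had the highest percentile among the start site peaks of the 8 genes in both libraries.

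Around Irf1, 5 distal peaks were called in each library and 4 formed pairs. Of all distal peaks, 61.5% in control and 48.8% after inactivation had no partner. The intergenic -12.2 kb pair, with the HNF4 letters, was at percentile 3.46 in control (fold 1.74, −log10 p 3.11) and 78.6 after inactivation (fold 3.09, −log10 p 11.5). Its difference of 75.2 points was the largest of the distal pairs around the 8 genes, and by −log10 p it was 79.5. The neighbouring -10.8 kb pair was at 66.2 in control and 62.2 after inactivation, and the -6.85 kb pair at 53.4 and 44.3. Neither neighbour stood higher after inactivation. A pair at the start of the annotated gene Gm12216, 27.37 kb from the Irf1 start, was at 18.6 in control and 69.5 after inactivation, a difference of 51.0 points by fold and 19.5 by −log10 p.

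**Figure D3:**
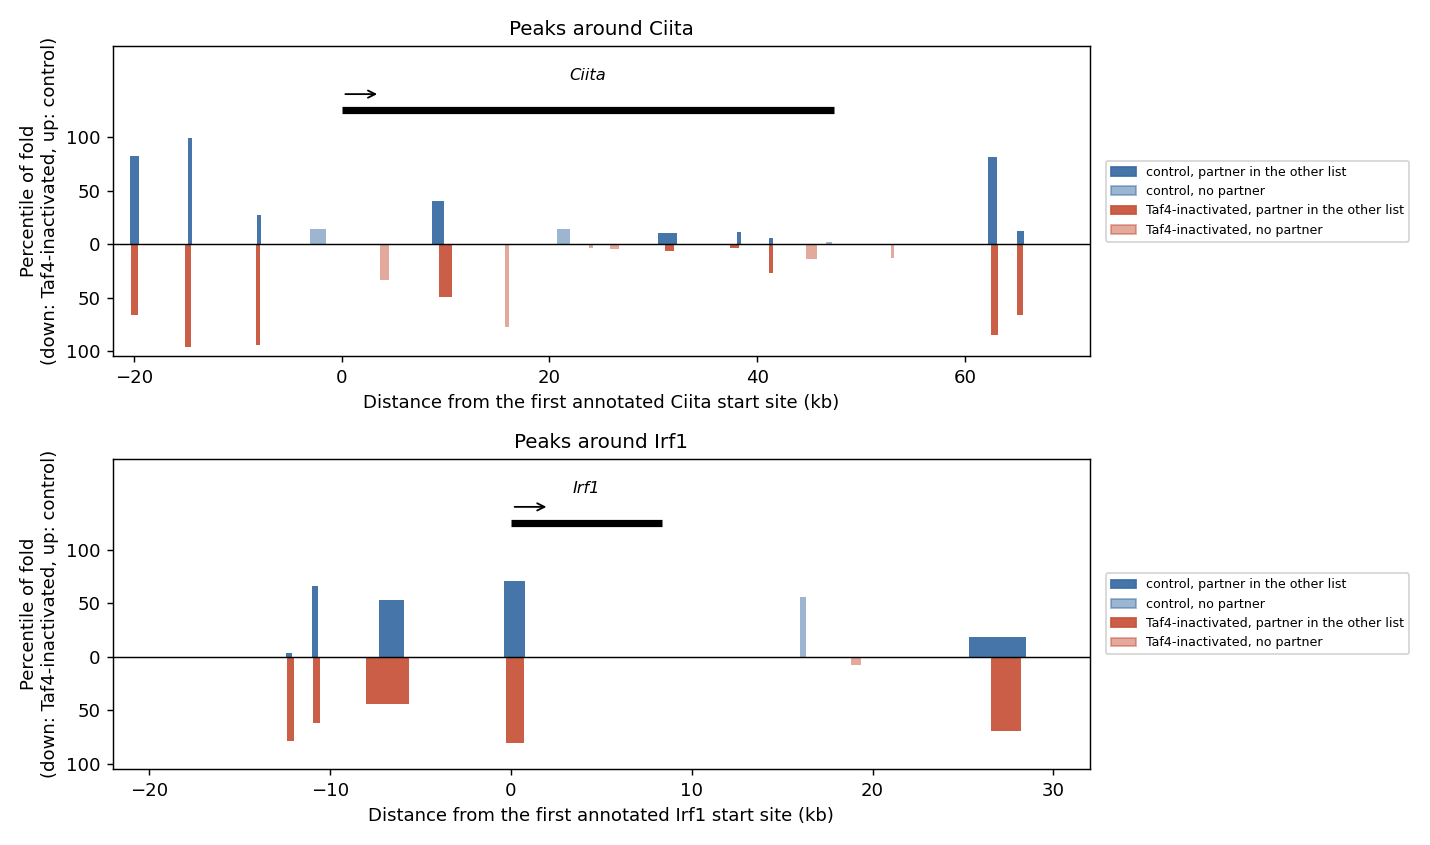
Peaks around Ciita (upper panel) and Irf1 (lower panel) by distance from the first annotated start of the gene (horizontal axis, kb), with bar height giving the percentile of fold, upward for control and downward for Taf4-inactivated. Pale bars overlap no peak of the other list. At -8.06 kb of Ciita and -12.2 kb of Irf1 a short control bar faces a tall Taf4-inactivated one, whereas bars at -14.8 kb of Ciita are tall in both.

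Irf7 (ENSMUSG00000025498.7, chromosome 7, 148448605 to 148452380, minus strand), which drives the type I interferon genes, had weak start site peaks. In control the peak spanned 148452092 to 148452386 with a fold of 1.78, at percentile 6.53. After inactivation it spanned 148451979 to 148452476 with a fold of 2.13, at percentile 13.6. The difference was 7.03 points. Both peaks thus stood low in their lists by fold, but by −log10 p they stood at percentiles 38.4 and 47.4, in the same order of libraries. Its distal peaks numbered 5 in control and 2 after inactivation, and 2 of each formed pairs. Of all distal peaks, 61.5% in control and 48.8% after inactivation had no partner. The 2 pairs lay over exons of Phrf1 (55.0 in control, 22.9 after inactivation) and over starts of Cdhr5 and Sct (15.4 and 48.3).

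Irf8 (ENSMUSG00000041515.3, chromosome 8, 123260258 to 123280594, plus strand) has 5 annotated promoters. At P1 the control peak spanned 123259635 to 123260356 with a fold of 2.14, at percentile 66.1. After inactivation it spanned 123259720 to 123260371 with a fold of 2.84, at percentile 71.1. The difference of 4.91 points by fold turned to -2.29 by −log10 p, so the sign at P1 hung on the value used for ranking. P2 (123262539) and P3 (123263890) had a single peak within reach of both, at percentile 5.74 in control and 30.5 after inactivation. P4 had none in either list, and P5 (123276109) had one after inactivation only, at percentile 7.38. An intronic pair -11.3 kb from the first start, in the annotated gene Gm20388, was at 8.79 in control and 56.8 after inactivation, and the -7.27 kb pair at 88.5 and 75.5.

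Among the 5 genes with start site peaks in both lists, the percentile was higher after inactivation at 4, against 34.2% of the 13974 coding genes with peaks in both. H2-Ab1, the class II chain, was the exception. The median difference was 7.03 points over the 5 genes and -2.77 over all of them. No difference reached 50 points. The order of the control percentiles was Irf1, Irf8, H2-Ab1, H2-Aa, Ciita, H2-Eb1, Cd74 and Irf7. With 1 library per genotype, the spread of a percentile between libraries of the same genotype is not known, and neighbours in this order were not separated by any test.

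CpG content divided the 8 promoters. The observed over expected CpG ratio of the 300-base windows was 0.912 at Irf1 P1 and 1.03 at Irf8 P1, against a median of 0.329 over all promoters. It was 0.158 at H2-Aa, 0.266 at H2-Ab1, 0 at H2-Eb1, 0.0916 at Cd74, 0.217 at Ciita P3 and 0.142 at Irf7. The 3 genes with a control peak only were all below 0.25, and so were Ciita P3 and Irf7, which had peaks in both lists. Of all coding genes in that range, 29.8% had a start site peak in control, 24.9% after inactivation and 9.03% in control only. Among those above 0.75, 1.46% had one in control only. These shares count all genes of a range. Most genes below 0.25 had no control peak, whereas all 8 genes had one, so 9.03% and 3 of 8 do not have the same base.

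In all, 41 distal peaks were called around the 8 genes in control and 35 after inactivation. The order turned with the control list cut to the length of the other, to 32 and 35 (13 and 16 without a partner), and at a −log10 q of at least 2, to 18 and 25. Of those away from the start of any gene, 16 of 34 in control had no partner (61.5% of all distal control peaks) and 13 of 31 after inactivation (48.8%). A −log10 q of at least 5 was reached by 2 of the 34 in control (4.85% of all distal control peaks) and by 11 of the 31 after inactivation (19.3%). The Taf4-inactivated list thus held more of the high-confidence distal peaks around these genes, as it did among distal peaks generally.

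Of the 18 distal pairs away from any start, 7 stood at a higher percentile after inactivation, against 43.0% of 26898 distal pairs. Their median difference was -3.17 points, beside -2.92 over all pairs. The Irf1 -12.2 kb and Ciita -8.06 kb pairs were higher by at least 50 points, 2 of 18 against 2.58% of all, and 0 of 18 were lower by as much, against 3.9% of all, so the latter count stands near the background. With H2-Aa at 49.9 and Irf8 -11.3 kb at 48.0 points, the largest positive differences were spread over the class II, Ciita and Irf genes. At the lower end stood the pair beyond H2-Ab1 (-39.7) and the pair over Phrf1 (-32.1).

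**Figure D4:**
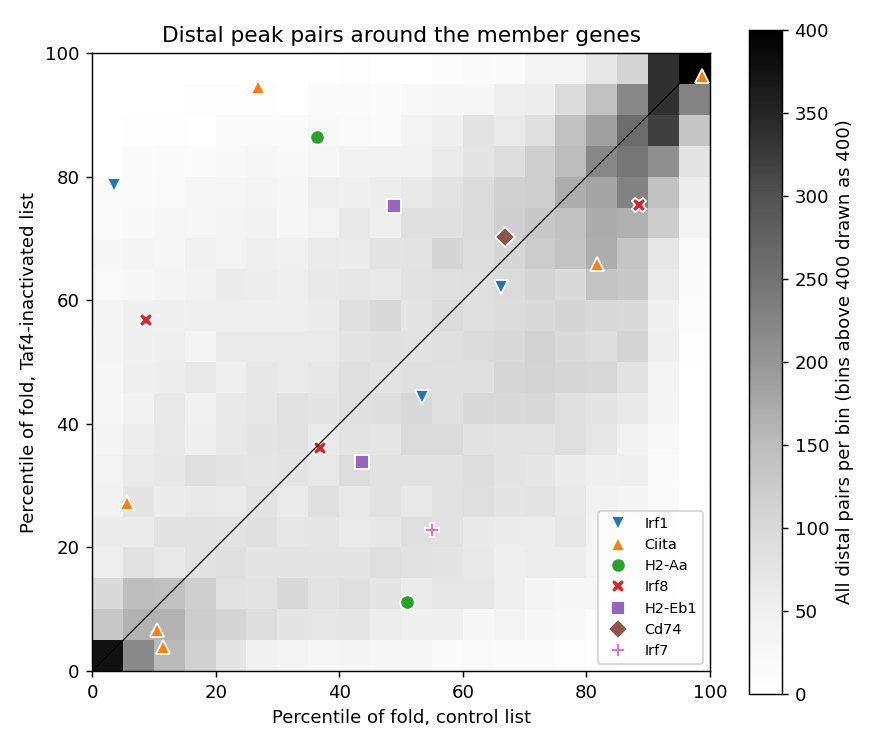
Percentile of fold in control (horizontal axis) and after Taf4 inactivation (vertical axis) for the 18 distal pairs around the member genes (coloured symbols by gene), over the number of all distal pairs per bin (grey). The line marks equal percentiles. An Irf1 and a Ciita symbol stand far above the line, at 3.46 and 26.8 in control and at 78.6 and 94.6 after inactivation.

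Genes of the same pathways were read from 5 lists, with 81 annotated genes counted once and the 8 genes above left out. Start site peaks were present at 68 of the 81 in control (68.5% of all coding genes) and 65 after inactivation (65.7%). These were 63 in both, 5 in control only and 2 after inactivation only, with 11 in neither. The median percentile difference over the 63 was -0.888 points, with 29 higher (34.2% of coding genes with peaks in both) and 34 lower. The counts in 1 list only stand near the shares of all coding genes, which were 5.68% in control only and 2.88% after inactivation only.

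Among 16 annotated genes of class II antigen presentation, 11 had start site peaks in each library. These include Rfx5, Rfxap, Nfya, Nfyb, Nfyc and Creb1, which encode factors bound at the X and Y boxes, and H2-DMa and H2-DMb1, whose products load peptide. Rfxank, a further RFX subunit, had the largest positive difference, from percentile 26.2 in control to 81.4 after inactivation, and Creb1 the largest difference in the other direction, from 95.8 to 83.8. H2-DMb2, H2-Oa, H2-Ob, H2-Eb2 and Ctss had none in either list. No gene of the list had a peak in 1 library only. By −log10 p the Rfxank difference was 22.3 points, in place of 55.2 by fold. The Creb1 difference was -4.75 by −log10 p and -12.0 by fold, and by −log10 p that of Nfyc was the largest negative one, at -10.1.

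All 10 annotated class I antigen presentation genes had start site peaks in each library. Psmb8, an immunoproteasome subunit, stood at percentile 25.8 in control and 78.8 after inactivation, and Erap1, a peptide-trimming enzyme, at 98.0 and 91.8. By −log10 p, Tap2 had the largest negative difference of this list, at -11.1 points, beside -7.94 at Erap1. Of 17 interferon signalling genes, 16 had a peak in both and Tyk2, a kinase of the type I receptor, had one in control only (percentile 21.2). There the largest positive difference was at Ifnlr1, the interferon-lambda receptor gene, from 20.4 to 52.9, and the largest difference in the other direction at Ifngr2, a chain of the interferon-gamma receptor, from 70.0 to 55.2. The 6 other IRF genes had peaks in both, and by fold Irf3 (14.7 in control, 51.3 after inactivation) and Irf4 (85.5 and 44.2) differed the most. By −log10 p the positive differences were smaller, at 18.5 points for Psmb8 (53.0 by fold), 19.7 for Ifnlr1 (32.5) and 7.94 for Irf3 (36.7), and there Irf9 stood above Irf3 with 13.7 points.

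Of 33 annotated interferon-induced genes, 21 had start site peaks in each library, 4 in control only, 2 after inactivation only and 6 in neither. Control-only peaks were those of Oas1a, Oas2, Tmem173, which encodes the sensor adaptor STING, and Ido1, a tryptophan-degrading enzyme whose peak stood at percentile 87.3. Ifit1 (78.2) and Ifitm3 (43.8), both antiviral effectors, had a peak after inactivation only. Isg15, Ifit3, Ifitm1, Zbp1, Gbp2 and Iigp1 had none. Bst2, which tethers budding virus, was at 9.44 in control and 76.6 after inactivation, and Gbp7, a GTPase, at 87.1 and 33.2. By −log10 p the largest negative difference was that of Irgm1, also a GTPase, at -63.7 points, beside -59.6 at Gbp7. Interferon-induced genes thus differed in either direction.

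**Figure D5:**
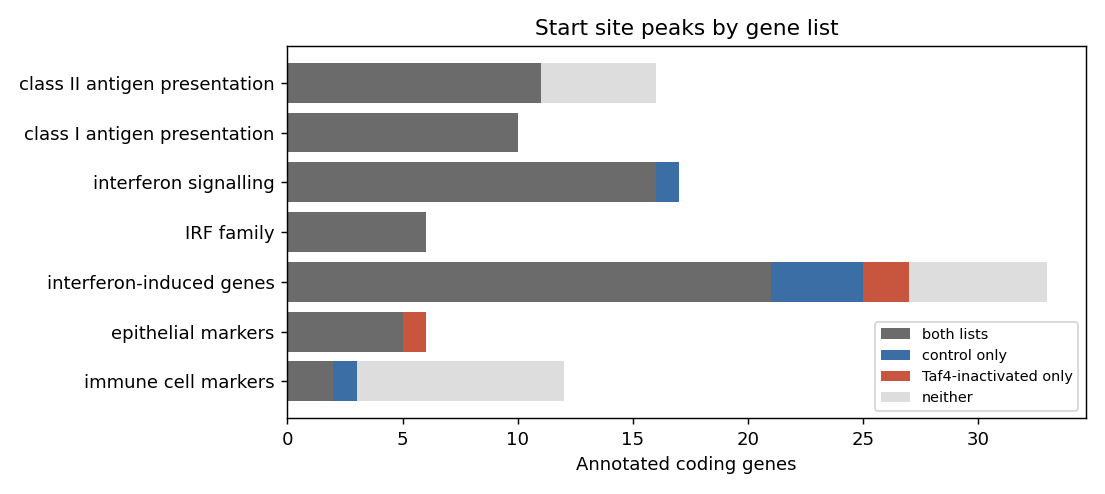
Number of annotated coding genes (horizontal axis) of each gene list with start site peaks in both libraries, in control only, in Taf4-inactivated only or in neither. Class II and class I antigen presentation genes of these lists, which leave out the 8 member genes, have no peak in 1 library only, and interferon-induced genes have 4 in control only and 2 after inactivation only.

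The genes whose pair of start site percentiles lay nearest to those of the members, among 63 pathway genes and over 2 libraries, were Ifngr2 for H2-Ab1 (5.05 points apart), Tap2 for Ciita (8.17), Cxcl10 for Irf1 (7.11), Dhx58 for Irf7 (6.60) and Gbp3 for Irf8 (3.03). With 2 values per gene this is a description of position alone.

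Class II genes are also expressed by leukocytes, so the defining markers of both cell types were read. Of 6 epithelial markers (Epcam, Vil1, Cdh1, Krt8, Krt20 and Cdx2), 5 had a start site peak in control (68.5% of all coding genes) and 6 after inactivation (65.7%). Krt20 was the one without a control peak. Of 12 leukocyte markers, 3 had a start site peak in control (68.5% of all coding genes) and 2 after inactivation (65.7%). Ptprc, Cd3e, Cd4, Cd79a, Ms4a1, Itgax, Csf1r and Adgre1 were among those with none in either list. Cd8a (68.2 in control, 15.5 after inactivation) and Itgam (59.3 and 29.4) had peaks in both, and Spi1 in control only (25.3). The leukocyte markers with a control peak thus stood lower or were not called after inactivation, and some epithelial markers stood lower as well. In the methods of the study, the enteroids had been through at least 5 passages. The part of either cell type in the class II values was not tested.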

How the data were processed

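ATAC-seq broad peak lists of 1 control and 1 Taf4-inactivated library were grouped by the genotype label. The authors aligned reads to mm9 with Bowtie 1.0.0 after bcl2fastq 2.17.1.14 and called peaks per library with MACS2 2.1.1, per the labels. Reads were extended to 200 bp. The deposited score is 10 times the −log10 q. The deposited fold is a ratio over the background of the same library. Both −log10 p and −log10 q, as the authors deposited them, are averaged over a peak. Treatment of duplicate reads is not given in the sources used here.

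Peaks were placed on the GENCODE annotation of NCBIM37 (mm9), with all transcripts of 22238 protein-coding genes. The peak with the highest fold represented a promoter, and peaks of the 2 lists formed a pair when each was the other's best overlap of at least 1 bp. Relative depth came from the background reads at which a peak's fold and its Poisson p hold together, at the 5th percentile of the narrowest 10% of peaks. Letters were matched on both strands of mm9, in 300-base windows. Members, lists and patterns were chosen with earlier results of these data known. Besides the members, the genes named from each list were those without a start site peak in 1 or both libraries and those with the largest percentile difference in each direction, and Rfx5, Rfxap, Nfya, Nfyb, Nfyc, H2-DMa and H2-DMb1 were added after their values were seen. Some genes of the lists are counted but not reported here by name. H2-Ea, Nlrc5 and Cxcl11 had no coding gene of that name. Peaks at percentiles 50 points apart were singled out. Alternatives varied the start site distance, q threshold, window, overlap, list length and ranking value. The 4 steps tested on simulated data were each within 2% of the known answer. The simulated depth step used a constant background and values not averaged over a peak. It therefore does not test the depth estimate on averaged values such as those deposited. Python 3.11.15, numpy 2.4.6, pandas 2.3.3, scipy 1.17.1 and matplotlib 3.10.9 were used. No p-value was computed.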

Additional observations from a re-analysis of the deposited data

How the results depend on the processing

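No paired analysis was possible because each genotype had a single library. For the same reason no replicate could be left out, and a difference between genotypes cannot be told apart from one between libraries. Of 102 alternative values, 28 for counts and medians moved by more than the set tolerance (1.5 times for a count), and 11 for single genes moved, with 4 more turning sign. The others also differed in part, within that tolerance. At the start sites of the 8 genes, the control-only count of 3 became 1 with a distance of 5 kb, 1 with the control list cut to the length of the Taf4-inactivated list, 1 at a −log10 q of at least 2 and 0 at 5. At that −log10 q of 2, 4 genes had a control peak and 2 a peak after inactivation only. At 5, 0 had a control peak and 2 had one after inactivation, in that library only. Of the pathway genes, the after-inactivation-only count of 2 became 1 at 500 bp, 1 at 5 kb, 9 at a −log10 q of 2 and 18 at 5, where 28 had a control peak and 1 a control-only one. Distal peaks numbered 26 in control and 22 after inactivation within 10 kb, and 79 (38 without a partner) and 63 (22 without) within 50 kb. With the control list cut, 32 control peaks faced 35 after inactivation (13 and 16 without a partner), which turned the order. At a −log10 q of 2, 18 control peaks (6 without a partner) faced 25, and at 5, 3 (0 without), beside 15 after inactivation. The median start site difference of 7.03 points became 4.00 by −log10 p and 2.86 among start site peaks alone. Single genes turned sign as follows: Irf8 to -2.29 by −log10 p and -0.568 by width, H2-Ab1 to 17.0 by width and Irf1 to -4.80 by width. Pairing by 50% overlap and ranking distal pairs by −log10 p, both added after seeing the data, left the number of pairs higher by at least 50 points within 1.5 times. The cause of these shifts was not tested.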

Other observations

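Distal pairs around the pathway genes were not described in the comparisons. Of 108 such pairs, each counted once, 61 stood at a higher percentile after inactivation (43.0% of all distal pairs did), with a median difference of 4.27 points beside -2.92 over all distal pairs. By at least 50 points, 3 were higher and 4 lower, near the shares over all distal pairs (2.58% and 3.9%). The 3 higher ones lay around Isg15, a ubiquitin-like protein induced by type I interferon (5.15 in control and 77.5 after inactivation, and 19.5 and 72.5), and around Ifi30, a lysosomal thiol reductase of class II processing (17.5 and 67.7). Isg15 itself had no start site peak in either list. The 4 lower ones lay around Stat2 (55.4 and 3.05), Gbp7 (86.4 and 30.9), Jak1 (87.0 and 29.8) and Rfxap (87.5 and 29.6). By −log10 p the Ifi30 difference was 7.26 points, so that its call rests on the fold.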
